A study of Homo sapiens with 2 samples.

Results

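Glucose is taken up by carriers of the SLC2A family and turned into pyruvate by glycolysis, and most steps are served by several isoforms encoded by separate genes. Isoforms differ in tissue distribution, in regulation and in response to low oxygen, and glioma cells are known for high glucose uptake and lactate release. Pyruvate either leaves the cell as lactate or enters mitochondria, where the pyruvate dehydrogenase complex oxidises it and the pyruvate dehydrogenase kinases (PDK) hold that complex back. The genes described here are 43 such transporters, enzymes and regulators. They were found as probe sets annotated to exactly 1 gene symbol of that list, which gave 85 probe sets of 41 genes, out of 41091 probe sets of 19775 genes on the array. SLC16A1 and SLC16A3, which export lactate, had no such probe set and were not analysed here.

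Transcripts were measured on Affymetrix arrays in cultures labelled LN229, an established human glioblastoma line, grown in DMEM with serum. One culture carried the plasmid pSUPER.neo expressing the microRNA miR-127-3p, and the control culture carried pSUPER.neo alone. The labels do not say whether either culture was a single clone or a pool. Each group was 1 array, which allows no test between groups and no check of any value by a replicate.

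The microRNA itself is shown because its seed, bases 2 to 8 (capitals), is the part that pairs with target transcripts. The sequence is RefSeq's, from chromosome 14 of GRCh38.p14 (100883035 to 100883056, plus strand).
hsa-miR-127-3p: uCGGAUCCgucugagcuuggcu
No transcript sequence was used here, so seed sites in the genes below were not searched.

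Signals are in arbitrary units on a linear scale, and where a pair of signals is given, that of the miR-127-3p array comes before that of the control. A log2 ratio is miR-127-3p minus control on log2(signal + 1), with the median over all genes subtracted, so a gene at 0 behaved like the median gene. The brightest probe set stood for its gene, and probe sets were kept when their mean log2 signal exceeded the median of all probe sets, which corresponds to a signal of about 83.0. Probe sets of the same gene differed with an SD of 0.44 in log2 ratio (16448 probe sets of 5974 genes). That SD is an error within this pair of arrays and holds no variation between cultures. Of all 11985 genes that passed the filter, 2811 lay below 0 and 2478 above 0 by more than that SD, so exceeding it is common. Median signals were 83.3 under miR-127-3p and 93.9 in control cells, and the 3′ to 5′ ratio of the GAPDH control probe sets was 0.97 and 0.98. That of the actin control probe sets was 2.95 and 3.36, so 5′ signal of that transcript was lower than 3′ signal on both arrays.

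Of the 41 genes, 40 passed the signal filter, and all 40 were above the array median on both arrays. FBP1, a fructose bisphosphatase of gluconeogenesis, did not pass, with signals of 8.50 under miR-127-3p and 31.2 in control cells, and no fold is given. Under miR-127-3p 6 of the 40 genes were lower by 2-fold or more, which is 15.0%, beside 8.67% of all 11985 genes that passed the filter. They were the transporters SLC2A1 and SLC2A3, the aldolase ALDOC, the enolase ENO2 and the kinases PDK1 and PDK3. At least 2-fold higher was 1 gene, MPC1, a subunit of the mitochondrial pyruvate carrier, which is 2.5% beside 5.06% of all genes. The other 33 genes lay within 2-fold. At 3-fold SLC2A1, ENO2 and PDK1 were left on the lower side, beside 3.94% of all genes, and 0 members on the higher side, beside 1.57%. At 1.5-fold 12 members were lower, beside 18.1% of all genes, SLC2A10, GPI, PGK1, PGAM1, ENO1 and PDHA1 joining the others, and 2 were higher, MPC1 and PKM, beside 14.5%. Counted by probe set, 12 of 73 above the filter were lower by 2-fold or more, beside 8.08% of all such probe sets, and 3 were higher, beside 5.28%. For 18 members several probe sets passed, and in 10 of these they all lay on one side of 0, beside 61.2% of such genes, so that for the other 8 the direction depends on the probe set. The median log2 ratio of the 40 genes was -0.13, against 0 for all genes by construction, and 26 of the 40 were below 0, beside 50% of all genes, although 7 of the 40 lie so near 0 that another scaling turns their sign. With a filter at the 75th percentile of signal the same 6 genes were lower, beside 4.95% of the 7824 genes that passed it.

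**Figure D1:**
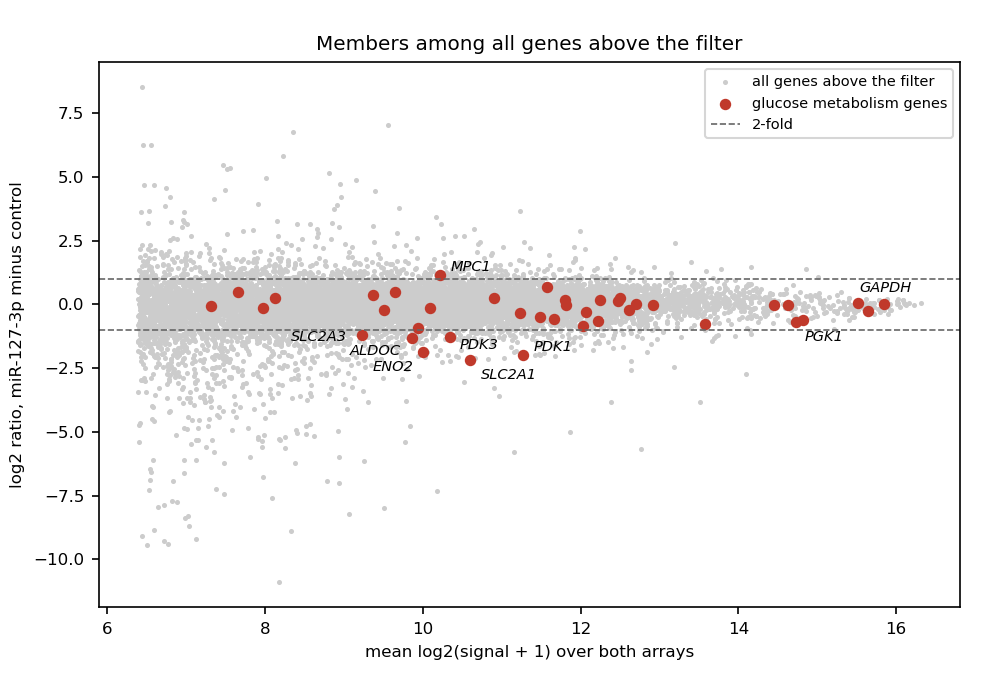
Each point is a gene above the filter, placed by its mean log2(signal + 1) over both arrays (horizontal) and its log2 ratio, miR-127-3p minus control (vertical), with dashed lines at 2-fold. The 40 glucose metabolism genes are red, and 6 of them lie below the lower line and 1 above the upper line.

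Markers of other cell types were read on the same arrays. Of 15 epithelial markers 14 were brighter in the control, 4 exceeded the array median under miR-127-3p and 11 in control cells, and their signals summed to 8199 under miR-127-3p and 94849 in control cells. EPCAM, an epithelial adhesion molecule, was at 30.2 and 9181, the keratin KRT19 at 5.64 and 12674, and the desmosomal DSP at 13.8 and 6991. Of 14 glial and glioma markers measured, 10 exceeded the array median under miR-127-3p and 9 in control cells, with summed signals of 88250 and 85619, to which VIM and CD44 gave most. In this list 9 were brighter in the control. Of those above the median on either array, 3 were so by 2-fold or more (NES at -1.03, SOX2 at -1.24 and SOX9 at -1.63). SLC1A3 went the other way with 2689 against 73.9. Of markers below the median on both arrays, GFAP and OLIG1 (each at -1.16) and AQP4 (at 4.52) were also past 2-fold. VIM and S100B were bright on both arrays, while GFAP, the defining intermediate filament of astrocytes, was below the array median on both at 14.9 and 34.2. Of 10 gut and liver markers 1 was above the median on either array, VIL1 in the control at 1847. Of 6 blood and endothelial markers PECAM1 was above the median on both arrays and CD14 in the control. All differences below run along the same pair of arrays as the epithelial difference, and its part in them was not tested. Nor was it tested that the cultures are one and the same line, so a ratio below can hold a difference between the cultures as well as the effect of the microRNA, which cannot be told apart with 1 array each. In a whole culture, a change in the make-up of the cells and a change in RNA per cell cannot be told apart.

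Of the 4 glucose carriers among the members, SLC2A1 and SLC2A3 were lower under miR-127-3p by 2-fold or more, and SLC2A10 and SLC2A12 were within 2-fold. Carriers of the wider family that passed the filter were not lower by that much, SLC2A8 being higher, SLC2A6 at 0.73 and SLC2A13 at -0.13. SLC2A1, the widely expressed carrier GLUT1, gave 729 under miR-127-3p and 3310 in control cells, at a log2 ratio of -2.19 or 4.57-fold lower. Its second probe set was below the filter, with 29.5 and 199. SLC2A3, the high-affinity carrier GLUT3 of neurons, gave 397 and 905, 2.30-fold lower, and its 3 probe sets ranged from -1.20 to -0.96. SLC2A3 shares sequence with SLC2A14, and the pair of probe sets annotated to both genes, which were left out of the counts, lay at -0.75 and -1.34. SLC2A10, GLUT10, gave 716 and 1345 and was just short of 2-fold at -0.92. SLC2A12, GLUT12, gave 156 and 161, at -0.05. The ratio of SLC2A1 was below that of SLC2A12 by 2.14 in log2, and an SD of 0.63 applies to such a difference between a pair of probe sets.

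**Figure D2:**
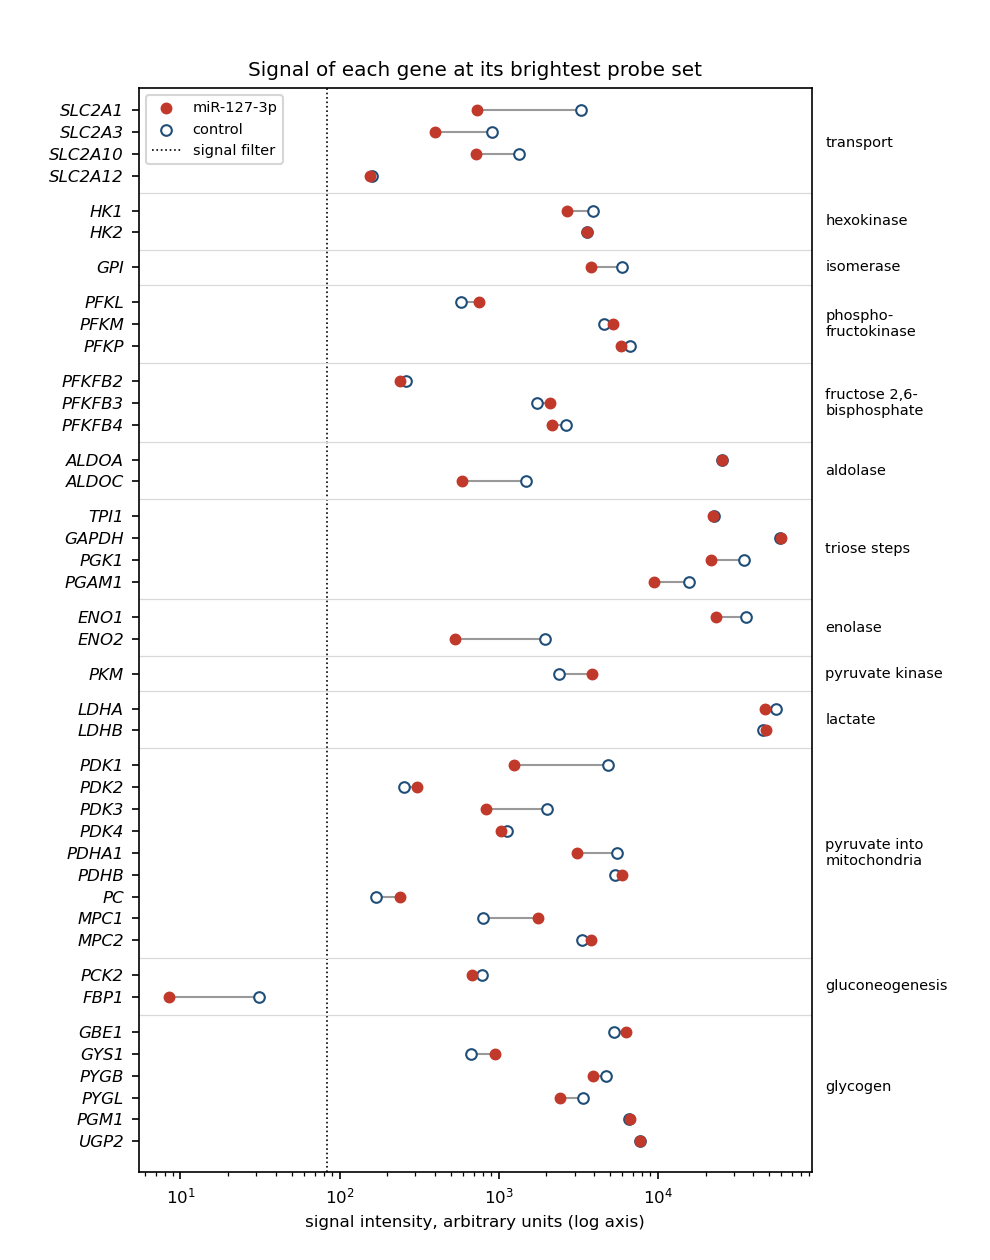
Signal of each gene with a probe set (arbitrary units, log axis) on the miR-127-3p array (filled) and on the control array (open), at the brightest probe set, ordered along the pathway. The bars joining both arrays are longest for SLC2A1, PDK1, ENO2 and FBP1, and only FBP1 lies left of the dotted signal filter. Positions of different genes are not comparable, because each probe set has its own efficiency.

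No gene of the entry steps passed 2-fold at its brightest probe set. HK1 and GPI were below 0 by more than the probe set SD of 0.44, as were 2811 of all 11985 genes. HK1, the hexokinase found in most tissues, gave 2673 under miR-127-3p and 3908 in control cells, at a log2 ratio of -0.56. HK2, the inducible hexokinase of muscle and tumours, gave 3591 and 3617. Its brightest probe set was at -0.02, but its other pair of probe sets, which are far dimmer, were above 0 and reached 1.04. HK2 thus had no single direction on these arrays. GPI, which turns glucose 6-phosphate into fructose 6-phosphate, gave 3833 and 5989, a log2 ratio of -0.66.

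Phosphofructokinase, the committed step, showed no isoform past 2-fold. PFKM, the muscle form, gave 5213 and 4570, and PFKP, the platelet form, gave 5860 and 6683. PFKL, the liver form, was at 0.37 at its brightest probe set and at -0.51 at the other. At the brightest probe sets all 3 ratios were smaller in size than the probe set SD of 0.44, which the other PFKL probe set exceeded. The PFKFB enzymes, which make and remove the strongest activator of phosphofructokinase, were also close to 0. PFKFB3, the form with the highest kinase activity, was at 0.25, PFKFB4 at -0.32 and PFKFB2 at -0.12. PFKFB2 and PFKFB4 had dimmer probe sets below the filter, and PFKFB2 gave 4.48 and 42.7 at the dimmest of them, where both arrays were below their median.

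Aldolase differed by isoform. ALDOA, the form of muscle and of most dividing cells, gave 25499 under miR-127-3p and 25400 in control cells, with 3 probe sets between -0.01 and 0.24. ALDOC, the brain form, gave 590 and 1476 at its only probe set, a log2 ratio of -1.33 or 2.52-fold lower. The ALDOC ratio was 1.33 below that of ALDOA, which is beyond the SD of 0.63 for a difference. The genes of this step were thus unequal, ALDOA near 0 and ALDOC below it.

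The triose steps split between genes at 0 and genes below it. TPI1, which interconverts the triose phosphates, gave 22365 and 22657. Another, much dimmer probe set of TPI1 gave 342 and 131, at 1.37. GAPDH, the oxidising step, gave 59764 and 58620, and its 3 probe sets lay between -0.0034 and 0.02. PGK1, the next enzyme and the first to make ATP in glycolysis, gave 21503 under miR-127-3p and 34644 in control cells, at a log2 ratio of -0.70. All 6 PGK1 probe sets were below 0, from -1.08 to -0.54. Of all genes with 3 or more probe sets above the filter, 24.8% had every one of them below 0, as did 6 of the 10 glucose genes with that many. PGAM1, a phosphoglycerate mutase, gave 9416 and 15758, a log2 ratio of -0.75 at its only probe set. GAPDH, PGK1, TPI1, ENO1 and LDHB have processed pseudogenes, and probe sets with a cross-match suffix, which 24 of the 40 chosen probe sets carry, may read such copies.

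ENO2 was at least 2-fold lower, while ENO1 was within 2-fold. ENO1, the form of most tissues, gave 23426 and 35930, at -0.63, and its 4 probe sets ranged from -0.67 to -0.15, the last being the only one without a cross-match suffix. ENO2, the neuronal form used clinically as neuron-specific enolase, gave 534 and 1955 at its only probe set, 3.68-fold lower at -1.88. The ENO2 ratio was 1.25 below that of ENO1. ENO3, the muscle enolase, which is not a member, gave 559 and 935, at -0.75. PKM, pyruvate kinase of muscle and tumours, was on the other side of 0 at its brightest probe set, with 3891 against 2389 and a log2 ratio of 0.69. Its second probe set was at -0.23, and no probe set was assigned to a splice form here. Of the 18 genes from hexokinase to pyruvate kinase, 2 were at least 2-fold lower, which at 11.1% is near the 8.67% of all genes, and 13 were below 0, of which HK2, PFKFB2, ALDOA and TPI1 turn sign under other scalings.

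**Figure D3:**
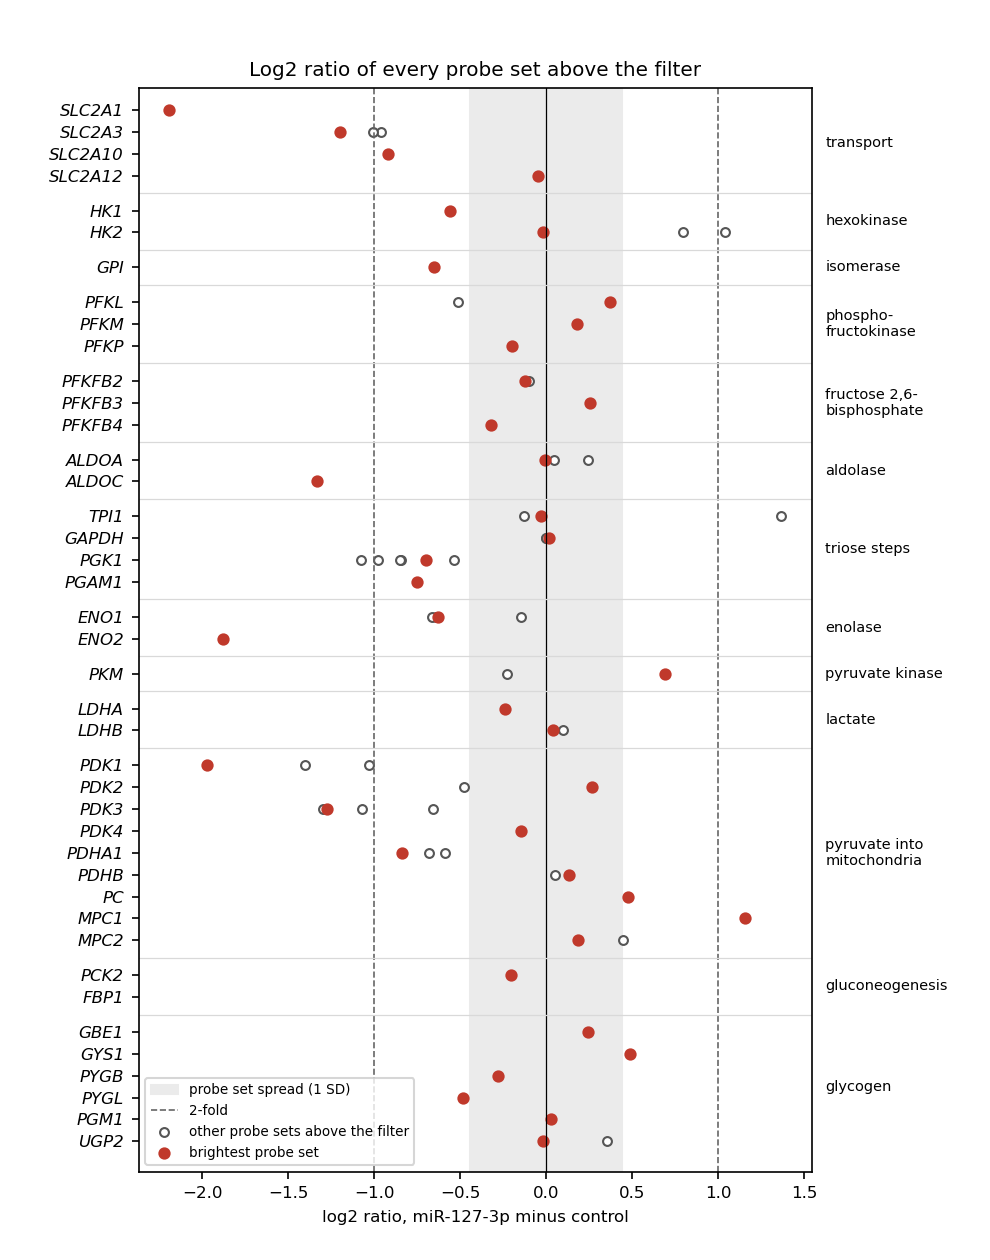
Log2 ratio, miR-127-3p minus control, of every probe set above the filter, with genes ordered along the pathway. Filled points are the brightest probe set of a gene and open points the others, the grey band is 1 SD of probe sets within a gene (0.44) on each side of 0, and dashed lines mark 2-fold. All probe sets of SLC2A3, PGK1, PDK1, PDK3 and PDHA1 lie left of the band, while those of HK2, TPI1, PKM, PFKL and PDK2 fall on both sides of 0.

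LDHA and LDHB, the main lactate dehydrogenases, were closer to 0 than the probe set SD of 0.44. LDHA, the form that favours lactate production, gave 47372 under miR-127-3p and 55458 in control cells, at a log2 ratio of -0.24. LDHB, the heart form, gave 47636 and 46028, with probe sets at 0.04 and 0.09. LDHC, the testis form and no member, was dim at 75.5 and 142. The difference between LDHA and LDHB, 0.28, is inside the SD of 0.63 for a difference. No saturation flag was used here for probe sets as bright as these.

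At the entry of pyruvate into mitochondria, PDK1 and PDK3 were at least 2-fold lower and MPC1 at least 2-fold higher, while the other 6 members were within 2-fold. PDK1, a hypoxia-responsive kinase that inactivates pyruvate dehydrogenase, gave 1253 under miR-127-3p and 4879 in control cells, 3.92-fold lower. Its 3 probe sets ranged from -1.97 to -1.03. PDK3, another kinase of this family, gave 834 and 2009, 2.43-fold lower, and the 4 probe sets above the filter ranged from -1.30 to -0.66. PDK2, found in most tissues, was at 0.27 with 308 against 254, and its other probe set was at -0.48. PDK4, the form induced by fasting, gave 1037 and 1137, a log2 ratio of -0.14. Above the filter, the probe sets of PDK1 did not overlap those of PDK2 or the only one of PDK4. The other PDK4 probe sets, below the median on both arrays, lay at -1.04 and -3.29. Those of PDK3 reached -0.66 and those of PDK2 began at -0.48, a gap smaller than the probe set SD of 0.44. How often probe sets of other gene pairs fail to overlap was not counted.

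Subunits of the complex that these kinases act on were unequal too. PDHA1, its catalytic alpha subunit and the one that is phosphorylated, gave 3129 and 5560, at -0.84, and its 3 probe sets ranged from -0.84 to -0.59. PDHB, the beta subunit, gave 5990 and 5417, with probe sets at 0.13 and 0.05. MPC1 gave 1781 under miR-127-3p and 792 in control cells, 2.23-fold higher, and MPC2, its partner in the carrier, gave 3815 and 3335, at 0.18. The second MPC1 probe set was below the filter at 33.3 and 18.9. PC, pyruvate carboxylase, which feeds pyruvate into the citrate cycle as oxaloacetate, gave 239 and 170, at 0.47.

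**Figure D4:**
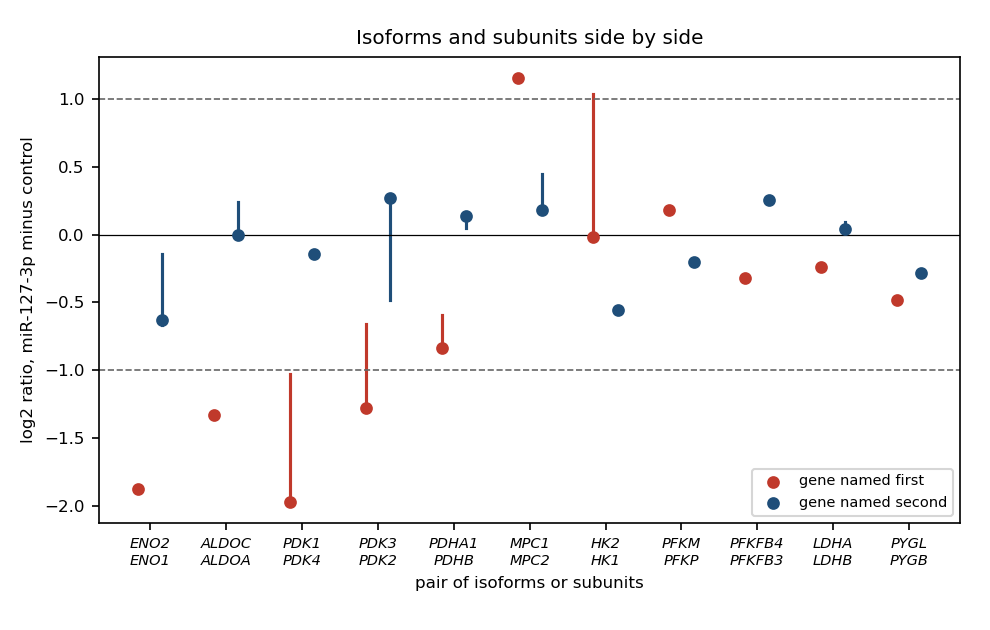
Log2 ratio, miR-127-3p minus control, of 11 pairs of isoforms or subunits. Points are the brightest probe set, vertical bars span all probe sets above the filter (no bar where there was 1), and dashed lines mark 2-fold. The distance between the points is widest for PDK1 with PDK4 at 1.83 and smallest for PYGL with PYGB at 0.20. Ranges do not overlap for the pairs shown, but the pairs were chosen. PFKL with PFKP, PDK1 with PDK3 and TPI1 with GAPDH overlap and are not shown. PFKM with PFKP, PFKFB4 with PFKFB3 and PYGL with PYGB have 1 probe set a gene, so they have no ranges to overlap.

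PCK2 and all 6 glycogen genes stayed within 2-fold. PCK2, the mitochondrial phosphoenolpyruvate carboxykinase, gave 682 and 781. Of the glycogen genes 3 were above 0 and 3 below, a split in which PGM1 and UGP2 change side under other scalings. These 2 enzymes, which lead glucose 6-phosphate towards glycogen, were at 0.03 and -0.02. GYS1, glycogen synthase, was at 0.49 with 950 against 671, and GBE1, the branching enzyme, at 0.24. The phosphorylases that break glycogen down were on the other side, PYGL at -0.48 with 2446 against 3390 and PYGB at -0.28. GYS1 and PYGL exceeded the probe set SD of 0.44 by little, and each had 1 probe set.

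A list of 67 other genes of glucose metabolism was read in the same way. Past 2-fold, 2 of the 39 that passed the filter were lower and 4 higher, or 5.13% and 10.3% beside the 8.67% and 5.06% of all genes, and nothing is read from counts this small. The lower genes were DLAT, the acetyltransferase subunit of pyruvate dehydrogenase, with 426 against 925 and 3 probe sets between -1.23 and -0.85, and PHKA2, a phosphorylase kinase subunit, at -1.33 with 3 probe sets up to -0.20. Highest was SLC2A8, the carrier GLUT8, which was at least 3.17-fold higher, since its control signal of 83.5 was below the array median. PDP1, the phosphatase that reactivates pyruvate dehydrogenase, gave 5472 under miR-127-3p and 2097 in control cells, with both probe sets near 1.37. TIGAR, a p53-responsive phosphatase that restrains glycolysis, gave 7320 and 2878, at 1.33. SLC16A7, the monocarboxylate carrier MCT2, gave 855 and 409, with 5 probe sets between 0.71 and 1.21. At pyruvate dehydrogenase, DLD was at 0.85 and PDHX at -0.37, a pair named after their values were seen. The subunits of that complex thus lay on both sides of 0.

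Transcripts of factors known to act on these genes were read from a list of 18. Past 2-fold, 3 of the 15 that passed the filter were lower, or 20% beside 8.67% of all genes, and 0 were higher, beside 5.06%. Nothing is read from counts this small. HIF1A, the oxygen-regulated factor that drives many glycolytic genes and is controlled mainly at the protein level, gave 37143 under miR-127-3p and 29758 in control cells, at 0.31. EPAS1, its relative HIF2A, was at 0.21, and the partner ARNT at 0.12 with another probe set at -1.04. EGLN3, a prolyl hydroxylase that is itself a HIF target, gave 61.3 and 222 and was at least 2.67-fold lower. Its signal under miR-127-3p was below the array median, so it passed the filter only through the control array. EGLN1 was at -0.43, VHL at -0.10 and HIF1AN at -0.07. MYC, a factor that raises glycolytic transcription, gave 578 and 6931. Among energy and glucose sensors, PRKAA2, an AMPK catalytic subunit, was 2.35-fold lower, its 5 probe sets ranging from -1.70 to -0.75, and PRKAA1, the other catalytic subunit, was at 0.55. MLX was at 0.21 and MLXIP at -0.56. TXNIP and ARRDC4, arrestins induced by glucose, were at -0.56 and -0.97. ESRRA was at 0.40. PPARGC1A, a coactivator of mitochondrial genes, was below the filter because of a control signal of 3.23, but gave 230 with miR-127-3p and was at least 2.41-fold higher. MLXIPL gave 3.94 and 104, also below the filter.

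Promoter windows of the members were searched for motifs of these factors. RefSeq's GRCh38.p14 table gave 250 bases before to 50 after each listed start site for 40 of the 43 genes, 75 windows in all. SLC2A3, SLC16A1 and PFKFB2 were not in it. ACGTG and GCGTG, the core letters of the HIF site, and CACGTG, the E-box bound by MYC and by the MLX family, were searched on both strands. A CACGTG match contains ACGTG on each strand. Of the 6 windows of the lower genes SLC2A1, ALDOC, ENO2, PDK1 and PDK3, 5 held ACGTG or GCGTG, as did 37 of 62 windows of genes within 2-fold (59.7%) and 48.4% of all 35116 windows. Among genes above the signal filter the share was 60.7%, and among all genes at least 2-fold lower 58.8%. ACGTG alone was in 4 of the 6 windows, 33.9% of the windows of genes within 2-fold, 25.4% of those of genes above the filter, 23.0% of those of all lower genes and 21.4% of all. CACGTG was in 1 of the 6, in 9.42% of the windows of genes above the filter and in 7.26% of all. These shares count windows, so a gene with several listed start sites counts several times. HK1 and PFKM are such genes within 2-fold, and most of their windows held no core, which lowers the share of that group. Shares by gene were not computed. Of the genes within 2-fold that had a window, only SLC2A12, PGAM1, PDK4, PCK2 and PYGL held neither core in any window. Median GC content was 72.7% in the 6 windows, 64.7% in those of genes above the filter and 58.7% in all, and the part of GC content in these shares was not tested.

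The upstream 250 bases of both enolase genes, of ALDOC and PDK3 among the lower genes, and of MPC1, the higher gene, are printed 5′ to 3′ on the gene's strand, each having 1 listed start site. Capitals mark ACGTG or GCGTG on either strand. Coordinates are chr17:28576896-28577145 (minus) for ALDOC, chr12:6914330-6914579 (plus) for ENO2, chr1:8878687-8878936 (minus) for ENO1, chrX:24465036-24465285 (plus) for PDK3 and chr6:166382941-166383190 (minus) for MPC1.
ALDOC: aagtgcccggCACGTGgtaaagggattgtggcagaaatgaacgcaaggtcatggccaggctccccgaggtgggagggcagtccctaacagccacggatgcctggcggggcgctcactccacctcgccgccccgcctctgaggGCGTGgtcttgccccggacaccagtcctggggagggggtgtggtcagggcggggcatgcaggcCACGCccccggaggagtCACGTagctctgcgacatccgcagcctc
ENO2: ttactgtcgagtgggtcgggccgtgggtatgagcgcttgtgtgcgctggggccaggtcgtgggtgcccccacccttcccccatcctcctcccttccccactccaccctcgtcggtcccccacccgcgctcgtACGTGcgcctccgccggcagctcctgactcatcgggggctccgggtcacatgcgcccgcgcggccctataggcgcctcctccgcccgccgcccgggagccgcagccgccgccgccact
ENO1: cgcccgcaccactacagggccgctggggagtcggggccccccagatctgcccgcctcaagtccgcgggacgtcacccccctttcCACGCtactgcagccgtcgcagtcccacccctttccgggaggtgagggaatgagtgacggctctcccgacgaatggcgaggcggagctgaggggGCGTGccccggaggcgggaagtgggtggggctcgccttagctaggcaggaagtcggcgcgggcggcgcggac
PDK3: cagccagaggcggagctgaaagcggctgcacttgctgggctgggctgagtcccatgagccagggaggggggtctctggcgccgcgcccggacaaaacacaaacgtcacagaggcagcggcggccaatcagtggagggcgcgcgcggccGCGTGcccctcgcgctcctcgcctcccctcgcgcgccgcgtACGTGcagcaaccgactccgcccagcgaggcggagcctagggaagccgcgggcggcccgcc
MPC1: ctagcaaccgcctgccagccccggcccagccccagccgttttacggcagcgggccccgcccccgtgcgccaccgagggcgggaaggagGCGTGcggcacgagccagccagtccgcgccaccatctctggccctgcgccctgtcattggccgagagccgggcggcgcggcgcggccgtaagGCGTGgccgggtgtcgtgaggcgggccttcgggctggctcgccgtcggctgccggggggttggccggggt
ALDOC holds 5 matches, a pair of them the strands of 1 CACGTG, and ENO2 holds 1 ACGTG. ENO1, within 2-fold at a log2 ratio of -0.63, and MPC1, at 1.16, each hold 2 GCGTG and no ACGTG. Among the lower genes printed, ALDOC and PDK3 hold GCGTG, and ALDOC, ENO2 and PDK3 hold ACGTG. MPC1 is the only higher gene, so no comparison between directions is drawn. The genes printed are a selection, and ACGTG was not confined to lower genes. ALDOA, the isoform partner of ALDOC, was at a log2 ratio of -0.01 and held ACGTG in every listed window. HK2 and GAPDH, also near 0, did so too. Of the windows of genes within 2-fold, 21 of 62 held ACGTG and the others did not. PDK1 has 2 listed start sites, and 1 window held 2 ACGTG just before the start while the other held no match. SLC2A1, with the lowest ratio of the members, also has 1 listed start site but is not printed. Its window held 1 GCGTG, which lay after the start site, so its upstream 250 bases held no match. A match describes the sequence and does not show that a factor binds there.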

How the data were processed

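Total RNA of 2 LN229 cultures was labelled with biotin by a 3′ in vitro transcription kit and hybridised to Affymetrix arrays, per the labels' protocols. Linear signal intensities, 1 per probe set and array, were deposited by the authors. Both arrays share a scale, with a mean of 500.1 on each after trimming 2% at either end. How the authors summarised probes, corrected background or called detection is not given in the sources used here. Of 54613 non-control probe sets the platform annotation pairs 41091 with 1 symbol, and Entrez identifiers matched 99.9% of these to RefSeq names of GRCh38.p14. Folds are 2 to the power of the centred log2 ratio, and the pseudocount of 1 understates those of dim genes. Where the dimmer array was below its median signal, the fold is a lower limit against that median, a floor chosen here rather than a call of detection. With 1 array per group a gene counted as called past 2-fold.

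The members and lists were chosen with earlier results of these data known. Every gene with a probe set was named, as were the other pathway genes past 2-fold whose probe sets lay on 1 side of 0 (at most 4 a direction) and the listed regulators. The 13 alternatives covered the fold threshold, filter, scaling (a loess span of 0.3 among them), pseudocount, choice of probe set and a floor. The calculation was tested on simulated arrays. Python 3.11.15, numpy 2.4.6, pandas 2.3.3, statsmodels 0.14.6 and matplotlib 3.10.9 were used.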

Additional observations from a re-analysis of the deposited data

How the results depend on the processing

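The 6 lower genes and MPC1 were the same under every alternative that kept the 2-fold threshold and all probe sets, except that no filter added FBP1, which is below the median signal on both arrays. At 1.5-fold, 12 genes were lower (30.0%, beside 18.1% of all genes) and 2 higher (5%, beside 14.5%). At 3-fold, 3 were lower, beside 3.94% of all genes, and 0 higher, beside 1.57%. With probe sets lacking a cross-match suffix 22 genes were left, 4 of them lower, beside 8.86% of the 9134 genes left. SLC2A1 and SLC2A3 were not among the 22, having no such probe set above the filter. TPI1 joined MPC1 as the second of 2 higher, beside 5.59% of all genes left. For the other pathway genes the lower count of 2 became 6 at 1.5-fold, or 15.4% beside 18.1% of all genes. It was 0 at 3-fold, beside 3.94%, and 7 without a filter. With the mean of all probe sets it was 1, beside 8.18%, and without suffixed probe sets 0, beside 8.86%. Their higher count of 4 became 7 at 1.5-fold, or 17.9% beside 14.5%, and 1 at 3-fold, beside 1.57%. Without a filter it was 10. It was 3 both with the mean of all probe sets, beside 4.77%, and with the filter at the 75th percentile, beside 3.31%. Without a filter 17.2% of all genes were lower and 12.8% higher, so the background rose as well. The cause of these shifts was not tested. Of 418 recomputed values of single genes 5 moved by more than 0.44 and none past 2-fold changed sign. With the mean of all probe sets HK2 was at 0.60, PKM at 0.23 and PDK1 at -1.47, and without suffixed ones TPI1 was at 1.38 and ENO1 at -0.13. Under the 4 other scalings 33 of 40 genes kept their sign. The exceptions, all near 0, were SLC2A12, HK2, PFKFB2, ALDOA, TPI1, PGM1 and UGP2. No paired analysis was possible because each group has 1 array.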

Other observations

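Members on the X chromosome in GRCh38.p14 all had ratios below 0, although PDK3 alone passed 2-fold. PGK1, PDHA1 and PDK3 are the 3 such members, at -0.70, -0.84 and -1.28, and PHKA2 of the other pathway genes, at -1.33, lies there too. PHKA1, another gene of that chromosome, was at -0.12. All 402 genes of the X chromosome above the filter had a median of -0.09, and 46 of them, or 11.4%, were at least 2-fold lower beside 8.67% of all genes. Values of these genes were seen before this grouping was made, and it was not tested.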
